A study of Homo sapiens with 30 samples.

Results

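The platelet-derived growth factor (PDGF) and vascular endothelial growth factor (VEGF) genes followed here are 9 of the 20098 protein-coding genes annotated on the autosomes and chromosome X: the PDGF ligands PDGFA, PDGFB, PDGFC and PDGFD, the PDGF receptors PDGFRA and PDGFRB, and the VEGF ligands VEGFA, VEGFB and VEGFC. They were taken by name, at their GENCODE positions on GRCh37. The data are chromatin immunoprecipitation sequencing (ChIP-seq) libraries of MDA-MB-231, an established triple-negative breast cancer cell line. Parental cells were profiled for SAP30, which is part of the SIN3 corepressor complex, and for the complex's scaffolds SIN3A and SIN3B. RNA polymerase II (Pol II), H3K4me3 and H3K9Ac were profiled in parental cells and in SAP30-KO1, a CRISPR/Cas9 knockout of SAP30 made by pooling clones that each came from 1 cell. The comparison asks whether Pol II and active chromatin at these genes differed between the knockout line and parental cells.

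PDGF ligands are dimers that activate the receptor tyrosine kinases PDGFRA and PDGFRB, chiefly on mesenchymal cells such as fibroblasts and pericytes. VEGF ligands act on endothelial cells, where VEGFA drives the growth of blood vessels and VEGFC that of lymphatic vessels. H3K4me3 marks active and poised promoters, H3K9Ac marks active promoters and enhancers, and the SIN3 complex carries histone deacetylases.

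Each of the 9 groups held 2 libraries, and each library had a list of peak summits, each the single base where a peak was highest. A list held 10861 to 54622 summits, and the sequencing depth behind them is unknown. Every summit carried a score, the −log10 of its q-value. Scores depend on depth, so a peak was placed by its rank within its own list, from 0% for the best score to 100% for the worst. A promoter peak is the best-ranked summit within 1000 bp of a start site of the gene. The lists hold no peak with a score under 1.302, so a gene without a peak can still carry signal below that limit. Fewer cells with a mark and less of it per cell cannot be told apart in these libraries. The study speaks of its replicates as biological samples or experiments without saying whether these ChIP libraries came from separate cultures, so p-values measure the spread between them, which may be partly technical. All knockout libraries came from the same line, SAP30-KO1. An effect of losing SAP30 therefore cannot be told apart from another difference between that line and parental cells.

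MDA-MB-231 is known as a mesenchymal-like line, and 6 of 6 mesenchymal genes had a promoter peak in all 4 Pol II libraries. Of 6 luminal genes, 5 had none in any of them and ERBB3 had one in all 4. None of the 3 annotated endothelial genes and not the blood cell gene PTPRC had one, and of the 2 lymphatic endothelial genes LYVE1 had none while PROX1 had one in all 4, at ranks of 37.5% to 99.8%. No SAP30 library of the knockout line was analysed here. The SAP30 promoter kept a Pol II peak, ranked at 10.2% and 5.40% in parental and 3.75% and 23.9% in SAP30-KO1 libraries, which says nothing on the protein.

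The reference sequences of 3 promoters are shown, for the genes that lost a Pol II peak and for the one without any promoter peak. Each runs from 250 bases before to 50 after the canonical start site, in the direction of the gene, on GRCh37. PDGFD (chr11:104034826-104035125, minus strand) and PDGFRB (chr5:149535359-149535658, minus strand) had a Pol II peak only in parental libraries. PDGFRA (chr4:55095210-55095509, plus strand) had no promoter peak in any list. Capitals mark the motifs searched on both strands, which were TATAAA and also CCAAT and also GGGCGG and also CACGTG and also ACGTG, and a CACGTG contains the last.
PDGFD: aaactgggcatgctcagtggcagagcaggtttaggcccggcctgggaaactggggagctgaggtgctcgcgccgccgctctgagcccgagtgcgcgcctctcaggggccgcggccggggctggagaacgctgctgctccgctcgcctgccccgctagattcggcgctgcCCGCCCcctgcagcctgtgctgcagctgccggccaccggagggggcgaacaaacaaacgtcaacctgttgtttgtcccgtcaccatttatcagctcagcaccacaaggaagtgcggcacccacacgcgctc
PDGFRB: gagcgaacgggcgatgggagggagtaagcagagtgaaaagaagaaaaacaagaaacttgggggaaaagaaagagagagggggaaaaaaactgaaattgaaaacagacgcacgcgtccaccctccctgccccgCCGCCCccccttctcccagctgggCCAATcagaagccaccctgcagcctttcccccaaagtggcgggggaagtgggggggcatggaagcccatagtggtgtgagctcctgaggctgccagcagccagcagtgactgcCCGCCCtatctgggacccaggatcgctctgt
PDGFRA: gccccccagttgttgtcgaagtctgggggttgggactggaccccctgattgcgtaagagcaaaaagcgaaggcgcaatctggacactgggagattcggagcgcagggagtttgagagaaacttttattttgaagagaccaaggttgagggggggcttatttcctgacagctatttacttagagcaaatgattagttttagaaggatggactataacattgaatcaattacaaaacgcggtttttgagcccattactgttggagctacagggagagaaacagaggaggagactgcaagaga

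The motifs were counted in such windows of 7 of the genes, all but PDGFB and VEGFA. The PDGFRB window was the only one of the 7 with CCAAT, at -94, against 36.0% of 19818 protein-coding promoters of this length. GGGCGG, the core of GC boxes, was in 6 of the 7 and in 61.5% of all, with 1 match in PDGFD, 2 in PDGFRB and VEGFC, 4 in PDGFA, 7 in PDGFC and 9 in VEGFB. PDGFRA had none of the motifs searched. None of the 7 held TATAAA, the consensus of a core promoter element found in 9.65% of all promoters, CACGTG, found in 8.76%, or its shorter core ACGTG, found in 23.3%. The observed over expected CpG ratio was 0.419 in PDGFRB and 0.528 in PDGFRA, below the median of 0.777, and 0.735 to 0.992 in the other 5.

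**Figure D1:**
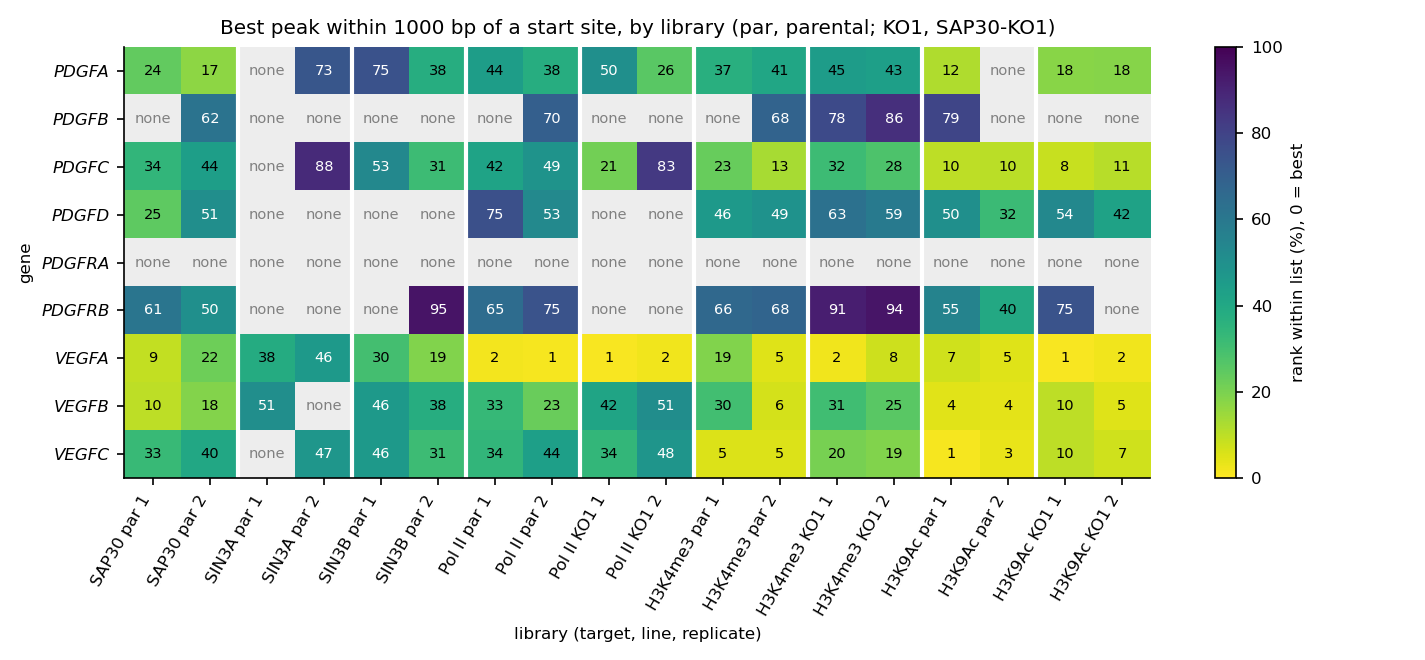
Promoter peak rank in percent of its list (0% is best) for each gene (rows) in each of the 18 libraries (columns), with "none" where the list has no such peak. VEGFA had a peak in all 18 libraries and PDGFRA in none, and PDGFD and PDGFRB had Pol II peaks in parental libraries only.

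In parental cells SAP30 had a promoter peak in both libraries at 7 of the 9 genes, while SIN3A did at VEGFA alone (2 genes in replicate 1 and 4 in replicate 2, each taken by itself) and SIN3B at 5 (PDGFA, PDGFC, VEGFA, VEGFB and VEGFC). Over all protein-coding genes the shares were 61.2% for SAP30, 31.5% for SIN3A and 51.7% for SIN3B. Pol II and H3K4me3 were each present in both parental libraries at 7 genes and H3K9Ac at 6, against 57.7%, 63.8% and 61.4% of all genes. With 9 genes these counts are a description.

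VEGFA, the main angiogenic ligand (chr6:43737921-43754224, 8 start sites), carried the best-ranked peaks of the family for Pol II. Its SAP30 peak ranked at 9.05% and 22.04%, its SIN3A peak at 38.4% and 45.9% and its SIN3B peak at 29.9% and 19.0% in the 2 libraries of each. VEGFB, a ligand of the receptor FLT1 (chr11:64002056-64006736), had SAP30 at 9.89% and 18.4% and SIN3B at 46.4% and 37.8%. SIN3A was listed at VEGFB in replicate 1 only, at 50.7%. VEGFC, the lymphatic ligand (chr4:177604689-177714076), had SAP30 at 32.7% and 40.1% and SIN3B at 46.4% and 31.3%. SIN3A was listed there in replicate 2 only, at 47.4%. All 3 VEGF ligands thus had SAP30 and SIN3B in both libraries.

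The PDGF ligands were less alike. PDGFA (chr7:536895-559933) had SAP30 at 23.9% and 16.97%, and PDGFC (chr4:157681606-157892951) at 34.3% and 43.9%. Both also had SIN3B in both libraries, at 74.9% and 37.8% in PDGFA and 53.3% and 31.3% in PDGFC, and SIN3A in replicate 2 only. PDGFD (chr11:103777917-104035107) had SAP30 at 24.8% and 50.6%, with summits 13 and 103 bp downstream of a start site. It had no SIN3A or SIN3B promoter peak in any of the 4 libraries, and the nearest SIN3A and SIN3B summits lay 1054400 to 1054788 bp away. By ChIP-qPCR, however, the paper reports SIN3A and SIN3B enriched at PDGFD in parental MDA-MB-231 cells, and less so in SAP30-KO1. Their absence from these lists is therefore no measure of absent binding. PDGFB (chr22:39619364-39640987), the B chain and a ligand of both receptors, had SAP30 in replicate 2 only, at 61.8%, and no SIN3A or SIN3B. In replicate 1 the nearest SAP30 summit was 1574 bp from a start site of PDGFB, just outside the window.

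The 2 receptors differed from each other. PDGFRB (chr5:149493402-149535435) had SAP30 at 61.0% and 50.4%, no SIN3A, and SIN3B in replicate 2 only at 94.6%, among the worst-ranked peaks of that list. PDGFRA (chr4:55095447-55164412) had no promoter peak of any target in any of the 18 lists. Its closest SAP30 summits lay 1376 and 1391 bp upstream of the nearest start site, where H3K4me3 had summits in all 4 of its libraries, 1268 to 1396 bp upstream. The nearest Pol II summit to PDGFRA was 137242 to 137345 bp away in the 4 libraries. H3K9Ac had summits 1278 and 1208 bp upstream in the parental libraries and 1312 bp upstream in SAP30-KO1 replicate 2. In SAP30-KO1 replicate 1 the nearest H3K9Ac summit was 11630 bp away. In parental cells a window of 3000 bp therefore counts PDGFRA as bound by SAP30 and marked by H3K4me3 and H3K9Ac, but not as holding Pol II.

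PDGFD belonged to 988 genes with SAP30 in both libraries and no SIN3A or SIN3B promoter peak. Of these, 434 had Pol II in both parental libraries and 80, or 18.4%, lost it as defined below. Among 10179 genes with SAP30 and SIN3B in both libraries, 9969 had Pol II in both parental libraries and 0.823% lost it. The median parental Pol II rank was 56.4% in the first group and 23.3% in the second, and among genes ranked worse than 50% the shares lost were 29.1% of 265 and 8.79% of 842. The groups were not compared by a test. By presence in all 18 lists, 63 other genes matched PDGFD, and those closest to it in rank over the 12 lists with a peak were PLBD1, GGT7 and MAP3K15, with mean absolute differences of 6.49, 6.64 and 7.20 percentage points.

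**Figure D2:**
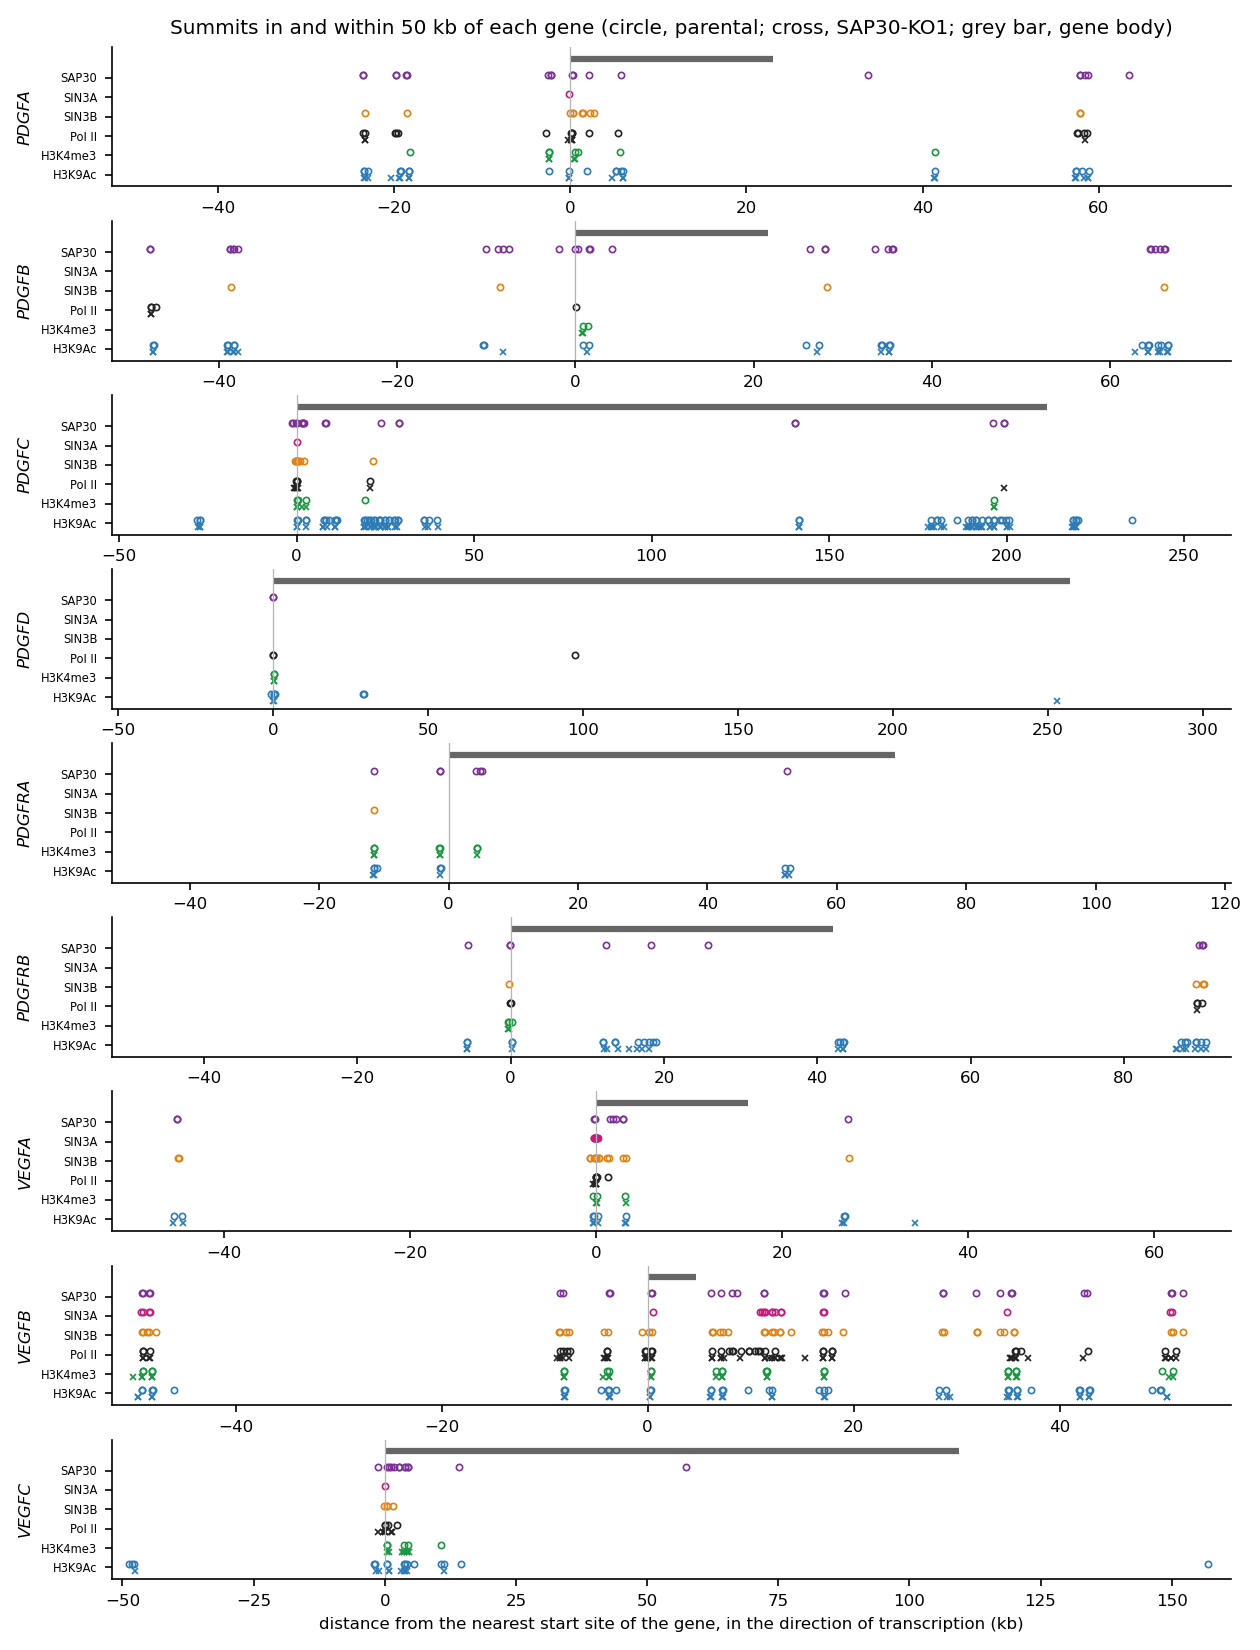
Summits of each target (rows within a panel) in and within 50 kb of each gene, by distance in kb from the nearest start site of the gene in the direction of transcription. Circles are parental and crosses SAP30-KO1 libraries, and the grey bar is the gene body. PDGFD holds almost no summit away from its promoter, and PDGFC a row of H3K9Ac summits along its body.

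Away from start sites the genes differed widely. Summits of all 18 lists within 1000 bp of each other formed 80 sites in and within 50 kb of the 9 genes, of which 62 held no annotated start site. At 28 of the 62 H3K9Ac was present in all 4 libraries, and 20 had SAP30 in both. SAP30 in both and H3K9Ac in all 4 occurred together at 13. SIN3B was present in both libraries at 7 and SIN3A at 0 of the 62. Pol II was present in all 4 libraries at 2 of them and in parental libraries only at 1, which lay 19.2 kb upstream of PDGFA. A site with Pol II in all 4, 35.5 kb downstream of the VEGFB start site, also had H3K4me3 in both libraries of each line. Whether it holds a start site outside this set of transcripts was not tested.

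PDGFC had the most such sites, with H3K9Ac in all 4 libraries at 12 of its 18 and SAP30 in both at 4 of these. PDGFB had 7, and SAP30 was present in both libraries at 5 of them, 65.4 and 35.1 kb and 27.3 kb downstream and 8.16 and 38.4 kb upstream of a start site. At the promoter of PDGFB, SAP30 was within 1000 bp of a start site in replicate 2 only. The nearest SAP30 summit of replicate 1 lay 1574 bp from a start site, so a wider window counts both. VEGFA had a site 44.96 kb upstream with SAP30 and SIN3B in both libraries and H3K9Ac in both parental and 1 SAP30-KO1 library. PDGFD had 3 sites in 257191 bp of gene body and its flanks, each from a single list. VEGFB is a short gene of 4681 bp among close neighbours, so 8 of its 14 sites held start sites, most of them of other genes such as STIP1, FKBP2 and PLCB3.

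Pol II was lost at the promoters of 2 of the 9 genes, PDGFD and PDGFRB, where lost means a peak in both parental and in neither SAP30-KO1 library. Of all genes with both parental peaks, 270 of 11595 or 2.33% lost it, and of those with a mean parental rank worse than 50%, which both genes had, 16.9%. None of the 9 gained a Pol II peak, against 0.249% of genes with both knockout peaks. Since 7 of the 9 genes had both parental peaks, the count of 2 is a description of these libraries and is not a test of the family.

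At PDGFD the Pol II peak ranked at 75.4% and 52.8% in the parental libraries, with scores of 5.44 and 13.3. Its summits lay 68 bp upstream of the canonical start site in replicate 1 and 107 bp downstream of the other start site in replicate 2. In the knockout lists the nearest Pol II summits lay 720882 and 870598 bp from a start site. H3K4me3 stayed in all 4 libraries, at 46.1% and 49.0% in parental and 62.7% and 59.1% in SAP30-KO1. The groups did not overlap, and both knockout ranks were worse. H3K9Ac also stayed, at 50.4% and 31.7% in parental and 53.5% and 42.4% in SAP30-KO1, and these overlapped.

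At PDGFRB the Pol II peak ranked at 64.6% and 74.5% in the parental libraries, with scores of 7.96 and 5.80. Its summits lay 28 bp upstream and 17 bp downstream of the start site. In SAP30-KO1 the nearest Pol II summits were 108028 and 89564 bp away. H3K4me3 ranked at 66.1% and 67.8% in parental and 91.5% and 94.2% in SAP30-KO1, without overlap. H3K9Ac ranked at 55.1% and 39.7% in parental and 74.5% in SAP30-KO1 replicate 1, and was not listed in replicate 2. Pol II, H3K4me3 and H3K9Ac at PDGFRB were thus each worse in rank or absent in both knockout libraries.

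PDGFB carried weak and scattered peaks. Pol II was listed at its promoter only in parental replicate 2, at 69.7%. H3K4me3 was listed in parental replicate 2 at 68.2% and in both knockout libraries, at 77.7% and 86.4%. In parental replicate 1 the nearest H3K4me3 summit was 1398 bp from a start site, just outside the window. H3K9Ac was listed in parental replicate 1 only, at 79.3%, with summits just outside the window in parental replicate 2 (1491 bp from a start site) and in SAP30-KO1 replicate 2 (1256 bp). PDGFB therefore met no definition of a lost or gained peak.

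The scores set a limit on these losses. The best Pol II score reached 588 and 705 in parental cells but 314 and 384 in SAP30-KO1, although the lists were of like length, with 20736 and 23002 against 23342 and 22123 summits. Near a rank of 50%, PDGFD scored 13.3 in parental replicate 2 and VEGFB 5.80 in SAP30-KO1 replicate 2. The parental Pol II peaks of PDGFD and PDGFRB all ranked worse than 50%, in the lower part of their lists. With the better-ranked 50% of each list neither can count as lost, since that cut removes the parental peaks themselves. Whether weaker enrichment of the SAP30-KO1 Pol II libraries has a part in the losses was not tested.

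**Figure D3:**
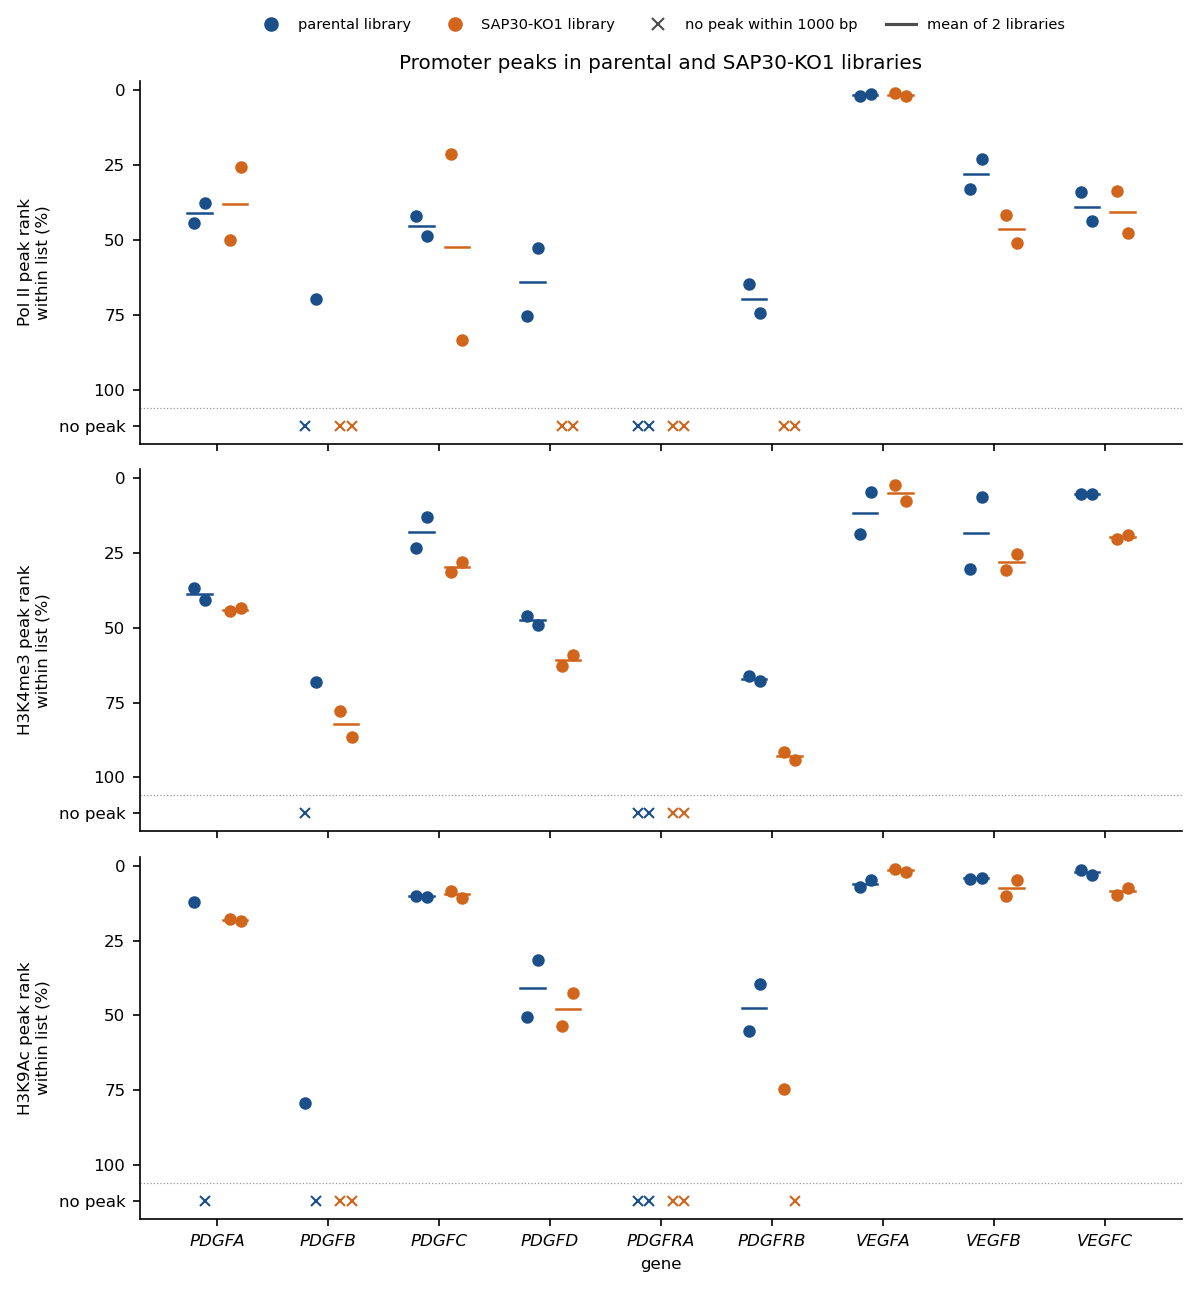
Promoter peak rank (percent of the list, 0% at the top) of Pol II, H3K4me3 and H3K9Ac for each gene in parental (blue) and SAP30-KO1 (orange) libraries, with 1 point per library, a bar at the mean of 2 and a cross where there was no peak. PDGFD and PDGFRB have crosses for both SAP30-KO1 Pol II libraries, and H3K4me3 at PDGFRB goes from 66.1% and 67.8% to 91.5% and 94.2%.

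At the 5 genes with a Pol II peak in all 4 libraries (PDGFA, PDGFC and the 3 VEGF ligands) parental and knockout ranks overlapped, except at VEGFB. VEGFA ranked at 1.92% and 1.40% in parental and 1.05% and 2.005% in SAP30-KO1, among the best Pol II peaks of each list and overlapping between the lines. VEGFB ranked at 32.9% and 22.8% in parental and 41.6% and 50.98% in SAP30-KO1, so both knockout ranks were worse. VEGFC ranked at 34.0% and 43.7% against 33.7% and 47.7%, an almost complete overlap.

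PDGFA ranked at 44.4% and 37.8% in parental and 50.1% and 25.6% in SAP30-KO1, and these overlapped. PDGFC ranked at 42.1% and 48.7% in parental and 21.4% and 83.3% in SAP30-KO1, so the 2 knockout libraries lay on either side of the parental ones. The direction at PDGFC thus depended on the library. The rank was worse by 37.8 percentage points without SAP30-KO1 replicate 1 and better, by -24.1 points, without replicate 2.

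Tested with limma on normal scores of the ranks over the 10706 genes with a Pol II peak in all 4 libraries, none of these 5 genes passed an adjusted p of 0.05 (adjusted p 0.691 to 0.973). The largest change was at VEGFB, 18.4 percentage points worse (adjusted p = 0.691, limma), and its coefficient was -0.50 ± 0.27 (SE) in normal scores. No gene of all 10706 passed, 0 worse and 0 better, while 582 and 247 had an unadjusted p under 0.05. VEGFB was the 1 of the 5 with both knockout ranks worse than both parental ranks, against 24.2% of all genes, and none of the 5 had both better, against 15.4%. The median change was 1.83 points over these 5 genes and 1.48 over all. When ranks were taken only among the best promoter peaks of the genes tested, in place of all peaks of a list, VEGFB was 23.003 points worse and again the 1 of the 5 with both knockout ranks worse (against 20.2% of all genes, and 20.1% with both better). On that scale the changes at PDGFC and VEGFC turned to -14.9 and -3.18 points, and the medians to -3.18 over the 5 and -0.056 over all.

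H3K4me3 ranks were worse in both SAP30-KO1 libraries at 5 of the 7 genes with a peak in all 4 libraries (PDGFA, PDGFC, PDGFD, PDGFRB and VEGFC), against 28.1% of 12531 genes, and better in both at none, against 11.5%. The median change was 11.6 points worse over the 7 and 2.09 over all genes. At VEGFC the rank was 5.41% and 5.31% in parental and 20.5% and 19.1% in SAP30-KO1, with little spread within either line. At PDGFC it was 23.3% and 13.0% against 31.6% and 27.9%. At PDGFA it was 36.9% and 40.9% against 44.5% and 43.4%, a shift not much larger than the spread between replicates.

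The remaining 2 overlapped between the lines. VEGFA ranked at 18.9% and 4.79% in parental and 2.296% and 7.77% in SAP30-KO1, the one gene whose mean was better. Its change of -6.79 points was 0.245 points without parental replicate 1. VEGFB ranked at 30.4% and 6.49% in parental and 30.8% and 25.4% in SAP30-KO1, and its change of 9.66 points turned to -2.28 without parental replicate 2.

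None of the 7 passed the test over all genes. PDGFRB changed by 25.9 points (unadjusted p = 0.00241, adjusted p = 0.573, limma), more than 99.8% of all genes tested on this scale. VEGFC changed by 14.4 points (unadjusted p = 0.00498, adjusted p = 0.579, limma) and PDGFD by 13.3 points (adjusted p = 0.672, limma). No gene of the 12531 passed, with 0 worse and 0 better, while 595 and 395 had an unadjusted p under 0.05. The call at PDGFRB turned on the variance model: with a trend in the prior variance its adjusted p was 0.00419 by limma, and 68 genes were called in place of 0. On quantile-normalised log2 scores, where 144 genes were called, PDGFRB was lower by a log2 difference of -1.74 (adjusted p = 0.00843, limma) and PDGFD by -1.10 (adjusted p = 0.0254, limma). No H3K4me3 promoter peak was lost or gained among the 9, against 1.43% lost of all genes, 11.2% of those ranked worse than 50%, and 0.166% gained.

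The size and order of these H3K4me3 changes depended on the scale of rank. When ranks were taken only among the best promoter peaks of the 12531 genes, PDGFRB lay at 97.7% and 98.2% in parental and 99.6% and 99.8% in SAP30-KO1. Its change was then 1.75 points, more than 58.3% of genes, and PDGFD changed by 6.66 points, more than 74.1%. VEGFC changed by 27.5 points, more than 97.6% of genes, and PDGFC by 19.3 points. On this scale PDGFA overlapped between the lines, so both knockout ranks were worse at 4 of the 7, against 20.0% of all genes, and better at none, against 18.4%, and the median change was 6.66 points over the 7 and 0.142 over all. No gene passed the test (adjusted p = 0.597 for PDGFRB and 0.593 for VEGFC, limma).

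H3K9Ac was present in all 4 libraries at PDGFC, PDGFD and the 3 VEGF ligands. VEGFC ranked at 1.29% and 3.14% in parental and 9.83% and 7.41% in SAP30-KO1, both worse. VEGFB ranked at 4.33% and 4.05% against 10.1% and 4.86%, also both worse, though SAP30-KO1 replicate 2 lay close to the parental ranks. VEGFA ranked at 7.28% and 4.96% against 1.08% and 2.102%, both better. PDGFC ranked at 10.1% and 10.3% against 8.37% and 10.8%, which overlapped.

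Both knockout ranks were thus worse at 2 of 5 genes and better at 1, against 22.1% and 16.4% of 12048 genes. VEGFC changed by 6.40 points and VEGFA by -4.53 points, and neither passed the test (adjusted p = 0.499 for each, limma). Ranked among the genes tested, these changes were 25.5 and -20.2 points, with adjusted p = 0.450 and 0.466 by limma, and the counts of 2 and 1 stood against 19.3% and 19.2% of all genes. Of all genes 2 passed as better, which is 0.0166%, and 0 as worse, and 398 and 571 had an unadjusted p under 0.05. PDGFA ranked at 12.04% in parental replicate 1 and 17.9% and 18.3% in SAP30-KO1, while parental replicate 2 had its nearest summit 1923 bp from a start site. No H3K9Ac peak met the definition of lost or gained, against 0.689% and 0.538% of all genes, and 12.3% lost among genes ranked worse than 50%.

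**Figure D4:**
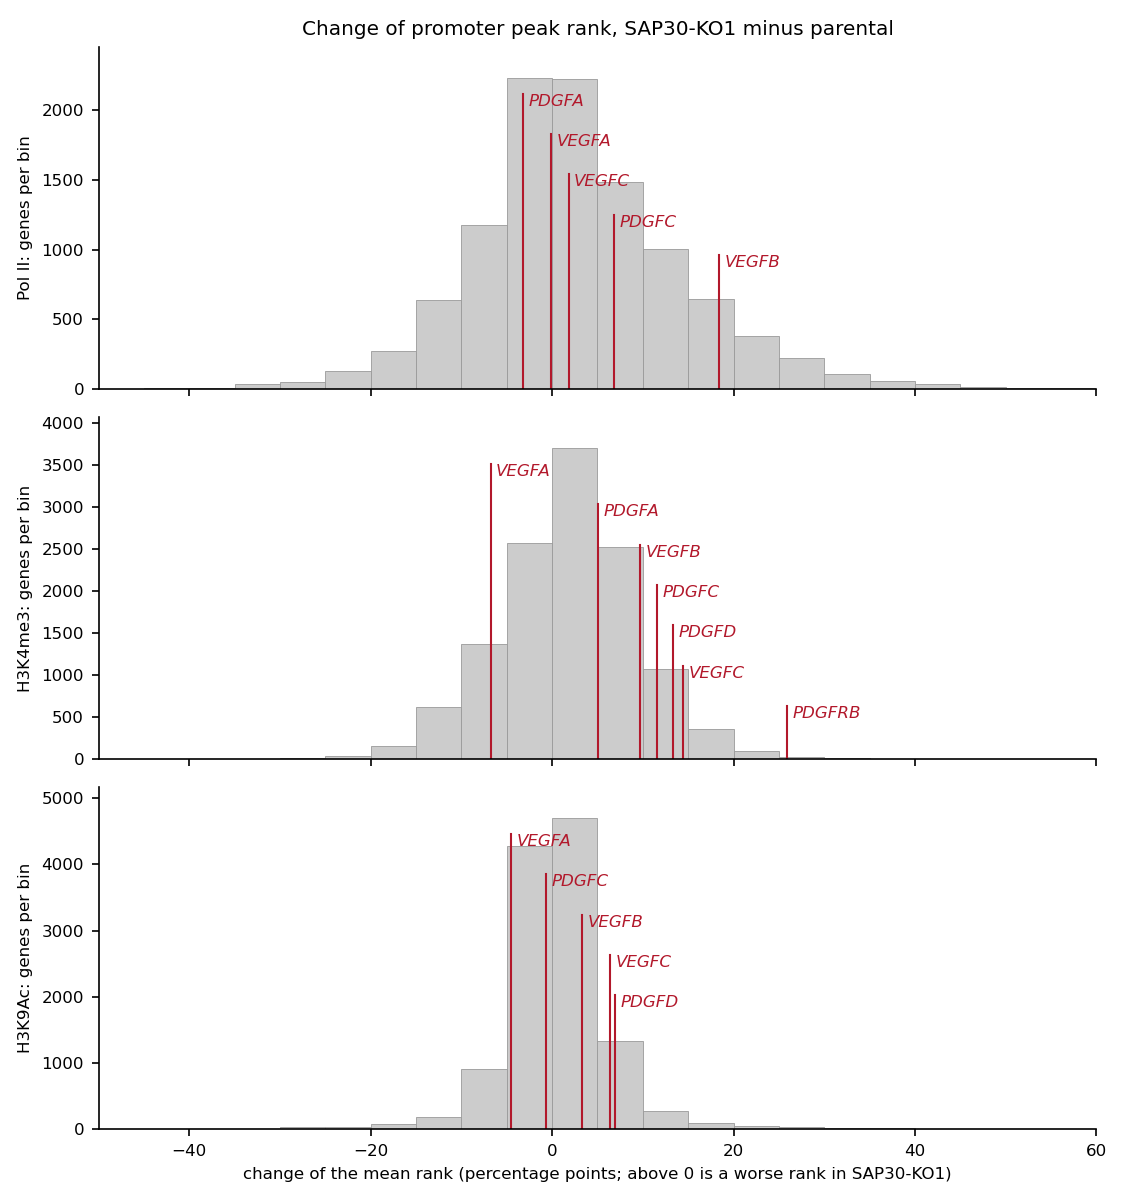
Change of the mean promoter peak rank in percentage points, SAP30-KO1 minus parental (above 0 is a worse rank in SAP30-KO1), over all protein-coding genes with a peak in all 4 libraries (grey bars, shown from -50 to 60) and for the PDGF and VEGF genes (red lines, whose heights only separate the names). PDGFRB lies at the upper edge for H3K4me3, at 25.9 points with ranks among all peaks of a list.

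Position on the chromosome moved with some of these changes. Of 40 chromosome arms, 11q, which holds PDGFD and VEGFB, had the largest median worsening of promoter rank for all 3 targets, with 9.94 points in Pol II, 8.50 points in H3K4me3 and 5.09 points in H3K9Ac. The long arm 4q, with PDGFC, PDGFRA and VEGFC, was at order 3 for Pol II (5.32 points) and 2 for H3K4me3 (5.49 points), but at order 8 for H3K9Ac (0.706 points). In rank change, VEGFB exceeded 90.7% of all genes for Pol II but 76.1% of the other 401 genes of its arm. For H3K4me3, VEGFB exceeded 86.7% of all genes and 55.1% of its arm, a change that turned without parental replicate 2. Ranked among the genes tested, 11q was again at order 1 of the 40 arms for each target, with medians of 13.2, 10.1 and 13.9 points, and 4q at orders 3, 4 and 17.

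For H3K4me3, PDGFD exceeded 94.3% of all genes and 75.9% of its arm (40.7% of it when ranked among the genes tested), and the median change of 30 genes within 5 Mb of it was 10.4 points against its own 13.3. Pol II was lost at 14 of 452 other genes of 11q, or 3.097%, and at 13 of the 36 ranked worse than 50% in parental cells, or 36.1%, against 16.9% of such genes over the genome. On 5q, the arm of PDGFRB, it was lost at 13 of 46 other such genes, or 28.3%. The shares were 37.5% of 16 on 7p and 26.5% of 49 on 4q, and 9.30% of 43 on 22q and 9.62% of 52 on 6p. VEGFC exceeded 92.0% of its arm for H3K4me3. PDGFRB lies on 5q, where the median H3K4me3 change was 2.36 points, and it exceeded all 470 other genes of the arm, but 56.4% of them when ranked among the genes tested. The part of these arm-wide differences in the changes at the genes was not tested, and neither was DNA copy number, which summit lists do not measure.

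**Figure D5:**
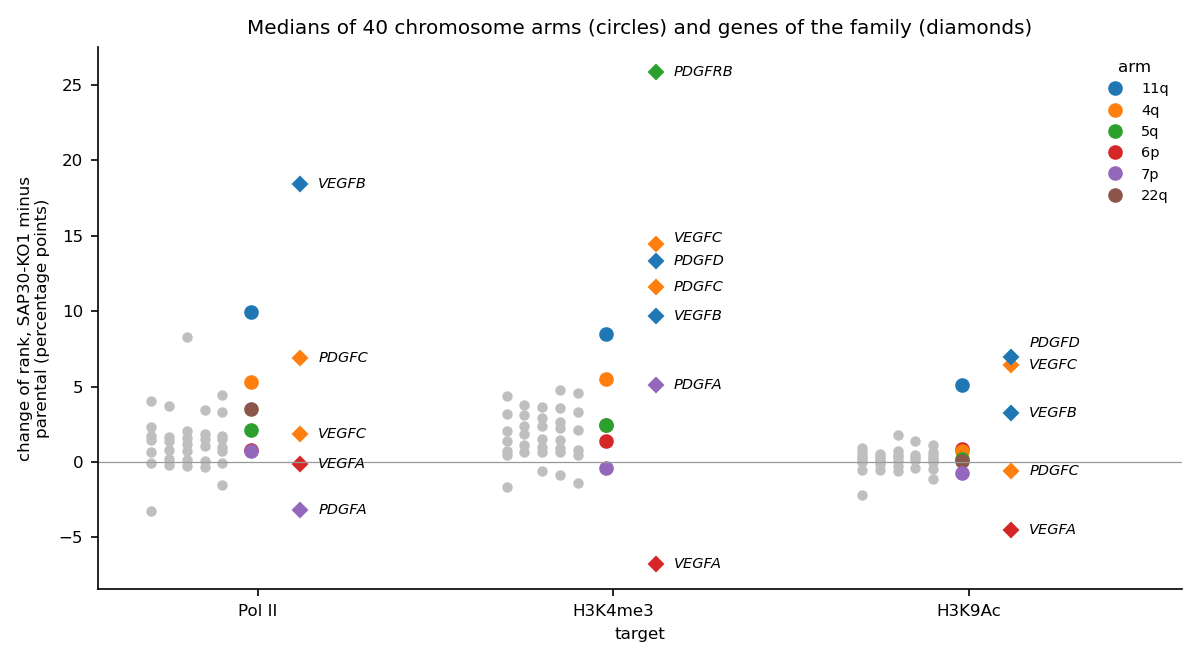
Change of promoter peak rank in percentage points (SAP30-KO1 minus parental) for Pol II, H3K4me3 and H3K9Ac: circles are the medians of 40 chromosome arms, coloured for the 6 arms that hold the genes and otherwise grey and spread sideways to be visible, and diamonds are the genes in the colour of their arm. The 11q circle is the highest for each target, and PDGFRB lies far above its arm for H3K4me3 with ranks among all peaks of a list.

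The numbers of summits in and within 50 kb of the 9 genes overlapped between the lines for Pol II and H3K4me3, and were lower in both knockout libraries for H3K9Ac. Pol II had 40 and 36 in parental and 44 and 36 in SAP30-KO1 libraries, a ratio of 1.05 (two-sided exact permutation test, p = 1). H3K4me3 had 29 and 27 against 28 and 29, a ratio of 1.02 (exact permutation p = 1). H3K9Ac had 98 and 104 against 93 and 87, a ratio of 0.891, and the exact permutation p of 0.33 is the smallest that 2 libraries against 2 can give. As a share of lists that were shorter in SAP30-KO1 (50862 and 50807 against 54622 and 53651 summits), the H3K9Ac ratio was 0.949 (exact permutation p = 0.667), and with summits within 1000 bp merged it was 0.917 (exact permutation p = 0.667), so the lines then overlapped. Merging turned the ratio to 0.792 for Pol II and 0.920 for H3K4me3 (exact permutation p = 0.333 for each). Both knockout libraries were then below both parental ones for these 2 targets. As a share of the list, H3K4me3 was instead higher in both knockout libraries, at a ratio of 1.08 (exact permutation p = 0.333). VEGFB, among close neighbours, held 18 and 18 of the Pol II summits in parental and 24 and 27 in SAP30-KO1. The other 8 genes had 22 and 18 against 20 and 9, a ratio of 0.725 (exact permutation p = 0.667), an alternative chosen after these counts were seen.

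Among 27 other genes of the PDGF and VEGF pathway, listed by their role, Pol II was present in both parental libraries at 22, and 1 lost it, the VEGF receptor gene KDR, against 2.33% of all genes and 16.9% of those ranked worse than 50%, as KDR was. KDR ranked at 49.6% and 67.2% in parental libraries and had no Pol II promoter peak in SAP30-KO1, while its H3K4me3 stayed, at 46.0% and 49.0% against 58.6% and 51.2%. FLT1 and FLT4, the other VEGF receptors, and the ligand gene VEGFD had no promoter peak of Pol II, H3K4me3 or H3K9Ac in any library. ST14, which encodes the membrane protease matriptase, lost both H3K4me3 (74.0% and 70.7% in parental) and H3K9Ac (80.0% and 69.0%) and had no Pol II peak. Over all genes 1.43% lost H3K4me3 and 0.689% H3K9Ac, and 11.2% and 12.3% of those ranked worse than 50%, as ST14 was. No gene of the 27 gained a peak of the 3 targets in both knockout libraries with none in parental, and 0 passed the limma test, for Pol II over 20, H3K4me3 over 23 and H3K9Ac over 21 genes tested. Their median changes were -1.56, 2.23 and 0.694 points.

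A long noncoding gene starts close to 3 of the 9 genes, and a shared promoter peak cannot be told apart between neighbours. PDGFA-DT starts 545 bp from a PDGFA start site, ENSG00000272114 lies 91 bp from one of VEGFA, and ENSG00000256116 lies 292 bp from that of VEGFB. PDGFD, PDGFRB, PDGFB, PDGFC, PDGFRA and VEGFC had no other start site within 1000 bp of theirs.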

How the data were processed

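ChIP-seq peak summits of 18 libraries in 9 groups of 2 were used, while 12 further samples (input or total H3) were not analysed here. Reads, per the labels, were handled with FastQC 0.11.2, Bowtie2 2.3.3.1, Picard and MACS2 2.1.0 on hg19, and the control behind each list is not given in the sources used here. The deposited scores are the authors' −log10 q-values, per library and not on pooled replicates. They were used for ranks within a list, and sequencing depth is unknown.

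Start sites came from GENCODE release 44 lifted to GRCh37, in basic transcripts. A gene's best summit within 1000 bp was ranked in percent of its list, with ties at their mean rank. Ranks were turned into normal scores and compared with limma 3.58.1 in R 4.3.3 over all protein-coding genes with a peak in all 4 libraries of a target, with Benjamini-Hochberg adjustment at 0.05 and no block. Counts within 50 kb of the genes were compared by exact permutation tests. Lower-half ranks are means worse than 50%. The limma step and the loss calls were tested on simulated lists. For limma these had larger shifts and less noise than the 9 genes, so they check the code and not the power in these data. All 9 genes are named, and from the 27 other pathway genes those with a lost, gained or called peak or none at all. The genes and lists were chosen with earlier results of these data known. Replicate files shared 0.243% to 1.15% of their summit positions, so none was a copy. Alternatives were other windows, flanks, ranks, start sites and scales, merging, a block, and each library left out. The promoter sequences of PDGFB and VEGFA are not reported here.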

Additional observations from a re-analysis of the deposited data

How the results depend on the processing

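A window of 3000 bp gave SAP30, H3K4me3 and H3K9Ac peaks in both parental libraries at 9 genes each, in place of 7, 7 and 6. With the start sites of all annotated transcripts, in place of basic ones, these 3 were each found at 8 genes within 1000 bp. SIN3A, SIN3B and Pol II then stayed at 1, 5 and 7 genes. With the better-ranked 50% of each list, SIN3B peaks in both were found at 3 genes, in place of 5. Pol II losses were then at 0 in place of 2, since the cut removes parental peaks of both genes. H3K4me3 losses were at 1, PDGFD, in place of 0. Its knockout ranks fell outside the cut, though all 4 lists held the peak. Leaving out single libraries gave 2 to 3 genes with a lost Pol II peak, the added gene being PDGFB without parental replicate 1, 2 to 4 genes with SIN3A, 0 to 1 with lost H3K9Ac, and 0 to 1 with a gained H3K4me3 or H3K9Ac peak.

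Genes called over the genome moved most. Pol II had 1 with the replicate block, and 0 to 682 without single libraries, from 164 without SAP30-KO1 replicate 2 to 682 without replicate 1. A line left with 1 library was assumed to vary like the other. H3K4me3 had 144 on quantile-normalised log2 scores and 68 with a trend in the prior variance. H3K9Ac had 1 instead of 2 with ranks among the genes tested, log2 scores, the trend or a window of 3000 bp, and 13 to 35 without single libraries, from 13 without SAP30-KO1 replicate 1 to 35 without replicate 2 and 33 and 22 without parental replicates 1 and 2. The causes were not tested.

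Of 167 alternative values for 17 gene and target pairs, 154 kept the direction of the fitted coefficient, and 13 of the 150 in percentage points turned. With both libraries of each line, those that passed an adjusted p of 0.05 by limma were at PDGFD and PDGFRB, as given above. The same-numbered libraries shared no deviation (correlations over genes of 0.0137 in Pol II, -0.00972 in H3K4me3 and -0.00579 in H3K9Ac), and the block changed no call among the 9 genes, with H3K9Ac calls at 3.

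On merging, the ratio of summits within 50 kb turned to 0.792 for Pol II and 0.920 for H3K4me3 (exact permutation p = 0.333 for each). Without VEGFB (chosen after seeing the data) it turned to 0.725 and 0.970. For H3K4me3 the ratio was 0.844 with the better-ranked 50% (exact permutation p = 0.333). Without single libraries it ran from 0.947 to 1.16 for Pol II and from 0.983 to 1.06 for H3K4me3. Depth is unknown, so a missing peak is no measure of absence. Percentiles, arm medians and overlaps with ranks among the genes tested were also added after seeing the data.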
